A study of Mus musculus with 4 samples.

Results

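The genes described here are the 6 Cyp3a cytochrome P450 genes Cyp3a11, Cyp3a13, Cyp3a16, Cyp3a25, Cyp3a44 and Cyp3a59, and 4 genes for proteins that work with cytochrome P450 enzymes, Por, Cyb5, Cyb5r3 and Pgrmc1. They were taken by gene symbol from a table of 22849 symbols, and all 10 were found. Liver RNA came from male mice of the inbred C57BL/6 strain kept for 12 weeks on a high fat diet (60% fat). The 2 libraries called Vehicle came from mice on this diet without UAB126, and the 2 called UAB126 from mice whose diet also held UAB126 at 1.2 g per kg. UAB126 is a compound known here only by this code, and both groups share the high fat diet, so no lean liver was compared. Each value is in FPKM, fragments scaled to transcript length and to the mapped fragments of the library, so levels of different genes can be set side by side per length. The labels number the libraries and do not say that they came from separate animals. The p-values set the group difference against the spread between libraries of a group, an estimate shared in part across genes. Part of that spread may be technical.

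Cytochrome P450 enzymes of the Cyp3a family sit in the endoplasmic reticulum of hepatocytes and oxidise drugs, steroids and bile acids. Each oxidation needs electrons, which NADPH-cytochrome P450 oxidoreductase (Por) passes from NADPH to the heme of the P450. Cytochrome b5 (Cyb5, now named Cyb5a) can supply electrons to some P450 enzymes and receives its own from NADH-cytochrome b5 reductase (Cyb5r3) or from Por, and Pgrmc1 is a heme-binding membrane protein reported to bind P450 enzymes. Transcription of Cyp3a11 is known to be raised by ligands of the nuclear receptors PXR (Nr1i2) and CAR (Nr1i3), and Cyp3a16, Cyp3a41a and Cyp3a44 are known as genes expressed mainly in female liver.

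The heme of a P450 is held by a cysteine in a conserved stretch of the protein. The 60 coding bases around that cysteine codon are shown because they let a reader see how alike the 6 genes are, which bears on how reads were divided among them. They come from GENCODE M21 transcripts, on mm10, and run 5′ to 3′ on the gene's strand, with capitals where a base differs from Cyp3a11.
Cyp3a11 (chr5:145858790-145858849, minus strand): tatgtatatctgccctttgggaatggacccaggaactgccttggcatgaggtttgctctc
Cyp3a16 (chr5:145440426-145440485, minus strand): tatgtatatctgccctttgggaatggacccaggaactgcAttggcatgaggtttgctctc
Cyp3a44 (chr5:145777990-145778049, minus strand): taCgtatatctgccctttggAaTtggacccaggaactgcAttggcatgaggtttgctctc
Cyp3a13 (chr5:137895252-137895311, minus strand): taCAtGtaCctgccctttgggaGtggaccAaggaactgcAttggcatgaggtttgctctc
Cyp3a25 (chr5:145981453-145981512, minus strand): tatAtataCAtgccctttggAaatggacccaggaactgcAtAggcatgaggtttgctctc
Cyp3a59 (chr5:146109077-146109136, plus strand): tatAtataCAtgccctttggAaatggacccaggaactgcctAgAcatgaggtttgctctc
Cyp3a16 differed from Cyp3a11 at 1 of these 60 bases, Cyp3a44 at 4, Cyp3a25 and Cyp3a59 at 6 each and Cyp3a13 at 7. The protein signature of the heme cysteine was found in 5 of the 6 translated genes and not in Cyp3a59, which is annotated as protein coding.

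Over the whole coding sequence the genes formed pairs and groups. Cyp3a25 and Cyp3a59 were 97.5% identical, Cyp3a11 and Cyp3a44 94.9%, and Cyp3a11 and Cyp3a16 92.8%, while Cyp3a13 was 75.4% to 77.1% identical to the others. Cyp3a25 and Cyp3a59 were as far from Cyp3a11, Cyp3a16 and Cyp3a44, at 74.9% to 76.3%. The libraries were sequenced in reads of 75 bases from both ends. Of all windows of 75 bases in its transcript, Cyp3a25 shared 10.7% exactly with another Cyp3a transcript, Cyp3a59 10.8%, Cyp3a44 6.73%, Cyp3a11 3.66%, Cyp3a16 1.63% and Cyp3a13 0%. Shared windows were thus a minority for each gene, but a read with a sequencing error can still be placed on the wrong copy, so the values of Cyp3a25 and Cyp3a59, and of Cyp3a11, Cyp3a16 and Cyp3a44, remain uncertain at the low end.

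Close copies also had close promoters. The 100 bases before the annotated start are shown for 5 genes so that the close copies can be set beside their RNA levels, which were far apart for Cyp3a25 and Cyp3a59 and both low for Cyp3a16 and Cyp3a44. They come from RefSeq, build GRCm38.p6, whose start for Cyp3a11 differs from that of GENCODE. The GENCODE span of Cyp3a11 ends at 145879964, so the 100 bases shown for it lie inside that span. Capitals in Cyp3a16 and Cyp3a44 mark bases not aligned to the same base in Cyp3a11, and in Cyp3a59 those not aligned to the same base in Cyp3a25.
Cyp3a11 (chr5:145879855-145879954, minus strand): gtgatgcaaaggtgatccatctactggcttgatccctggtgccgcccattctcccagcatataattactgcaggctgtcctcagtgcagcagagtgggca
Cyp3a16 (chr5:145469724-145469823, minus strand): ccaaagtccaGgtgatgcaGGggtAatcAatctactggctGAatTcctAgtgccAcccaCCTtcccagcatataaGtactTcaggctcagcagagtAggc
Cyp3a44 (chr5:145805875-145805974, minus strand): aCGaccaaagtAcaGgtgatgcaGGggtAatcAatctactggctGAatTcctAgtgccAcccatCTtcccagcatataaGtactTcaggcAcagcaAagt
Cyp3a25 (chr5:146009619-146009718, minus strand): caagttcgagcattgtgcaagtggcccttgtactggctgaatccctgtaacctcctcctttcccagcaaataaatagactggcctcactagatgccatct
Cyp3a59 (chr5:146079158-146079257, plus strand): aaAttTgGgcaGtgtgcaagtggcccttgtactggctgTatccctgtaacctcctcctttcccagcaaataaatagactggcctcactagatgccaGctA
Over 250 bases upstream, Cyp3a25 and Cyp3a59 were 95.6% identical at aligned bases, Cyp3a16 and Cyp3a44 95.9%, Cyp3a11 and Cyp3a16 83.3% and Cyp3a11 and Cyp3a44 80.9%. RefSeq promoters were matched for 8 of the 10 genes. In these windows, which reach from 250 bases before the start into the transcript, the half-site AGGTCA, on either strand, occurred in Cyp3a11, Cyp3a25, Cyp3a44 and Cyp3a59, and in 16.3% of all 32851 promoter windows. The half-site AGTTCA occurred in Cyp3a11 and in 14.0% of all windows. No exact direct repeat of either half-site with a gap of 3 or 4 bases (DR3, DR4), and no exact everted repeat of the ER6 kind, was found in these 8 windows. A match or its absence describes letters in these windows only.

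The tissue label was checked against markers. Over all tested symbols, both UAB126 libraries lay below both Vehicle libraries in 26.9% and above them in 22.7%. The marker counts are to be read beside these shares. Of 11 hepatocyte markers in the table none was at 0 in all libraries, but Alb, the albumin gene, named after its values were seen, was listed at 0 in 3 libraries. Both UAB126 libraries were below in 6 of the 11 and above in 1. The summed FPKM of the list without Alb was 71275 to 102201 in Vehicle and 39894 to 56637 with UAB126. Most of this sum came from 2 short transcripts, Ttr (1186 bases) and Apoa1 (1035 bases), and short transcripts were lower with UAB126 in general. The median log2 difference of the list was -0.75, and -0.44 with the trend on transcript length removed. Of 8 pericentral markers 5, Axin2 among them, were below and 0 above, but the Axin2 row held an implausible 31319 to 239373 FPKM. Without Axin2 the pericentral sums were 2843 to 3007 FPKM in Vehicle and 1293 to 1442 FPKM with UAB126. Of 8 Kupffer cell and macrophage markers 3 were above and 0 below, with sums of 80.9 to 230.6 FPKM and 189.3 to 228.5 FPKM. Among tested genes, UAB126 lay above in 3 and below in 1 of 8 periportal, above in 2 and below in 0 of 7 endothelial, above in 1 and below in 0 of 7 stellate, and above in 0 and below in 1 of 5 cholangiocyte markers. Of the intestine, pancreas and erythroid lists 1 gene each was tested (Fabp2, Cela1 and Alas2), and each lay below with UAB126. Their log2 differences were -1.90, -0.92 and -1.42, and -1.46, -0.54 and -1.29 with the trend on transcript length removed. The 2 tested lymphocyte and neutrophil markers overlapped between the groups. No marker passed the test (limma), but the pericentral marker Oat, lower with UAB126 (539.6 and 599.2 FPKM for Vehicle, 87.0 and 105.7 FPKM for UAB126, adjusted p = 0.0531), passed in 9 of 14 alternatives, among them removal of the length trend (adjusted p = 0.0298). The part of cell makeup and of zonation in the values of the Cyp3a and partner genes was not tested.

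No difference between the groups passed the test in the 10 genes. Of the 8 that reached a mean of 1 FPKM and were tested, 0 passed (limma, Benjamini-Hochberg adjusted p under 0.05 over 10786 symbols) and 0 had an unadjusted p under 0.05, whereas over all tested symbols 0.139% passed (0.0464% higher and 0.0927% lower with UAB126) and 13.4% had an unadjusted p under 0.05. In 5 of the 8 both UAB126 libraries lay below both Vehicle libraries (Cyp3a25, Cyp3a59, Cyb5, Cyb5r3 and Pgrmc1), in 0 they lay above, and in 3 the groups overlapped. Over all tested symbols 26.9% lay below, 22.7% lay above and 50.4% overlapped. An exact permutation test of 2 against 2 libraries cannot give a two-sided p under 0.333. In bulk liver RNA, fewer cells of a type and less RNA per cell cannot be told apart.

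**Figure D1:**
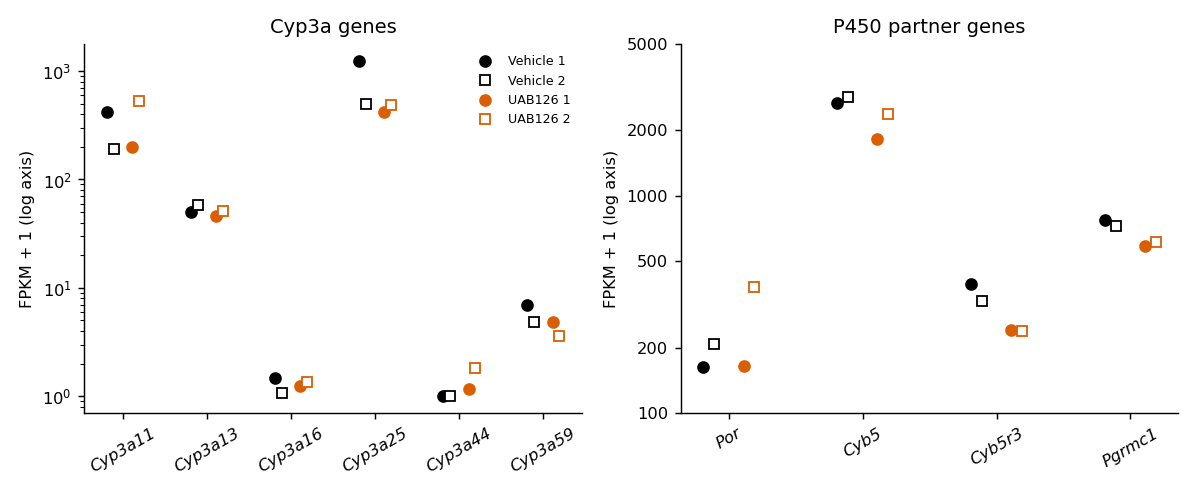
FPKM + 1 on a log axis for the 6 Cyp3a genes (left) and the 4 partner genes (right), with a point for each library (black for Vehicle and orange for UAB126, circles for replicate 1 and open squares for replicate 2). Cyp3a11 was high in Vehicle replicate 1 and UAB126 replicate 2, and both UAB126 libraries of Cyb5r3, near 238 FPKM, lie below both Vehicle libraries.

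Cyp3a11, the main drug-inducible Cyp3a gene of mouse liver (chromosome 5, 145854426 to 145879964, minus strand, mm10), measured 417.0 and 190.8 FPKM in the Vehicle libraries compared with 199.8 and 527.3 FPKM in the UAB126 libraries. One library of each group was high and the other low, so the groups overlapped: the higher library exceeded the lower by 2.19 times in Vehicle and 2.64 times with UAB126. The log2 difference, UAB126 minus Vehicle on the log2(FPKM + 1) scale, was 0.20 ± 0.59 (limma's moderated SE, n = 2 per group, adjusted p = 0.891), with a 95% interval of -1.29 to 1.69. The sign rested on single libraries, at -0.36 without Vehicle replicate 2 and -0.50 without UAB126 replicate 2. The interval was the widest among the 8 tested genes.

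Cyp3a25, a second abundant liver gene of the family (chromosome 5, 145977194 to 146009618, minus strand), had 2 rows, which were summed to 1244 and 499.3 FPKM for Vehicle, compared with 414.6 and 484.5 FPKM for UAB126. Vehicle replicate 1 stood far above the other 3 libraries, which lay within a range of 414.6 to 499.3 FPKM. The log2 difference was -0.81 ± 0.47 (limma, adjusted p = 0.470; 95% interval -2.01 to 0.38). Without Vehicle replicate 1 it was -0.16, and without Vehicle replicate 2 it was -1.47. The rows differed: one held 227.2 and 189.0 FPKM in Vehicle against 101.2 and 134.1 FPKM with UAB126, without overlap. The other held 1017 and 310.2 against 313.5 and 350.4 FPKM, with overlap. The table gives both rows 1 locus that also spans Cyp3a59, and no source used here says which transcripts each row covers.

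Cyp3a59 (chromosome 5, 146079257 to 146113287, plus strand) lies beside Cyp3a25 on the opposite strand. Its mean was 4.04 FPKM against 660.7 FPKM for Cyp3a25, a ratio of 163. It measured 5.89 and 3.83 FPKM in the Vehicle libraries compared with 3.81 and 2.63 FPKM in the UAB126 libraries (log2 difference -0.46 ± 0.26, limma adjusted p = 0.462). The difference was -0.21 without Vehicle replicate 1, -0.72 without Vehicle replicate 2 and -0.26 without UAB126 replicate 2. Vehicle replicate 1 was highest, as it was for Cyp3a25, and the lower Vehicle library and the higher UAB126 library nearly touched.

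Cyp3a13 (chromosome 5, 137892932 to 137921619, minus strand), which lies apart from the cluster of the other 5 genes, was the steadiest of the Cyp3a genes. It measured 48.8 and 56.9 FPKM in the Vehicle libraries compared with 45.4 and 50.02 FPKM in the UAB126 libraries, with overlapping groups. Its log2 difference was -0.14 ± 0.20 (limma, adjusted p = 0.761), and the interval of -0.65 to 0.37 was the narrowest among the 8 tested genes. The sign turned with quantile normalization (0.050), and leaving out 1 library gave -0.25 to -0.033, the former without Vehicle replicate 1 and the latter without Vehicle replicate 2.

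The female-biased members stayed below 1 FPKM in each of these male liver libraries. Cyp3a16 measured 0.471 and 0.0672 FPKM in the Vehicle libraries compared with 0.244 and 0.348 FPKM in the UAB126 libraries. Cyp3a44 was listed at 0 in both Vehicle libraries and at 0.165 and 0.805 FPKM with UAB126. Neither reached a mean of 1 FPKM, so neither was tested with the others; with no filter the adjusted p was 1 for Cyp3a16 and 0.756 for Cyp3a44 (limma). For transcripts of 1700 to 2400 bases the lowest value above 0 was 0.00848 to 0.0231 FPKM in the 4 libraries and the 5th percentile of values above 0 was 0.0363 to 0.145 FPKM. Cyp3a16 in Vehicle replicate 2 lay below that library's 5th percentile, and the other values above 0 lay above theirs. Cyp3a41a and Cyp3a41b, also female-biased, were listed at 0 in all 4 libraries, and Cyp3a57, named after its values were seen, measured 0.130 and 0.0740 FPKM in the Vehicle libraries compared with 0.808 and 0.426 FPKM in the UAB126 libraries.

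Among Cyp3a genes the order of mean level was Cyp3a25, Cyp3a11, Cyp3a13, Cyp3a59, Cyp3a16 and Cyp3a44. Cyp3a25 and Cyp3a11 ranked 6 and 12 among the 90 symbols of the form Cyp, number, letter, number with a row of their own. This leaves out Cyp51, which has another form, and Cyp2e1 and Cyp1a2, which share rows with other genes. The order of Cyp3a25 and Cyp3a11 was not fixed, since Cyp3a11 exceeded Cyp3a25 in UAB126 replicate 2. The last pair in the order, Cyp3a16 and Cyp3a44, overlapped in their values.

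Summed over the 6 genes, a quantity that depends less on how reads were divided among them, Cyp3a RNA was 1716 and 750.9 FPKM for Vehicle, compared with 664.0 and 1066 FPKM for UAB126. The groups overlapped, and Vehicle replicate 1 alone exceeded the rest. The difference between the groups' mean log2 sums was -0.43, and 0.16 without Vehicle replicate 1. Cyp3a11 made up 24.3% and 25.4% of this sum in Vehicle and 30.1% and 49.5% with UAB126. Its share was higher in both UAB126 libraries, by 14.9 percentage points in the mean, of which 5.23 remained without UAB126 replicate 2. Cyp3a25 made up 72.5% and 66.5% in Vehicle and 62.4% and 45.5% with UAB126. The spread of the Cyp3a11 share between the UAB126 libraries (SD 13.7 percentage points) was close to the difference itself, and no test was run on these shares.

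**Figure D2:**
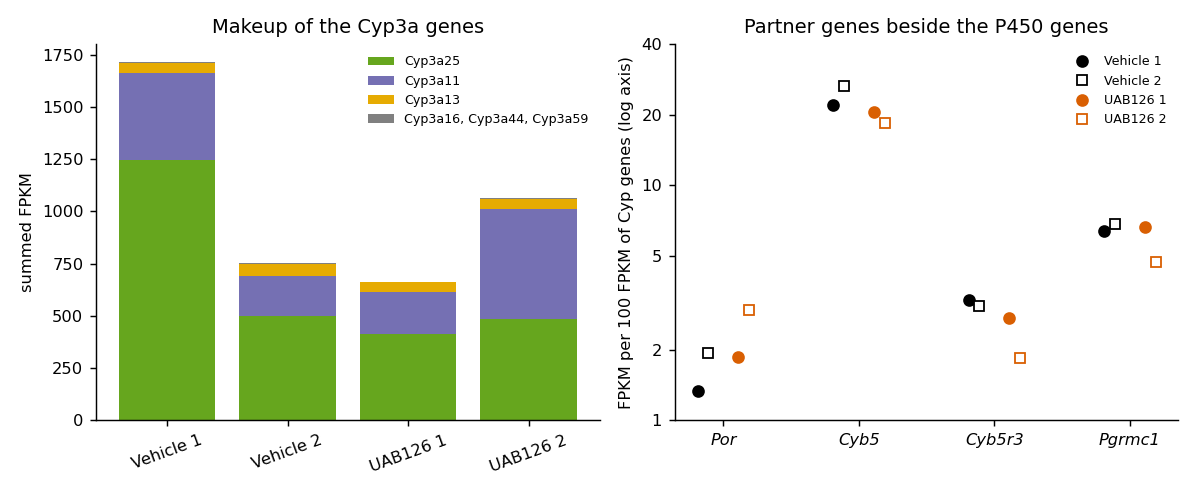
Left, summed FPKM of the Cyp3a genes in each library, split by gene. Right, FPKM of each partner gene per 100 FPKM of the 90 Cyp symbols together, on a log axis, with a point for each library (circles for replicate 1 and open squares for replicate 2). Cyp3a11 reaches 49.5% of the bar of UAB126 replicate 2, and Por stands highest there at 2.95 FPKM per 100.

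Por, the electron donor of all microsomal P450 enzymes (chromosome 5, 135670033 to 135735326, plus strand), measured 161.1 and 206.9 FPKM in the Vehicle libraries compared with 163.8 and 380.3 FPKM in the UAB126 libraries. Only UAB126 replicate 2 was high, and the other 3 libraries lay within 161.1 to 206.9 FPKM. The log2 difference was 0.45 ± 0.44 (limma, adjusted p = 0.644; 95% interval -0.66 to 1.56), and -0.16 without UAB126 replicate 2. That library was also the highest in Cyp3a11, whereas Vehicle replicate 1, also high in Cyp3a11, was the lowest in Por.

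Cyb5r3, which reduces cytochrome b5 (chromosome 15, 83153494 to 83172592, minus strand), had the smallest p of the 8 tested genes. It measured 390.9 and 328.5 FPKM in the Vehicle libraries compared with 239.9 and 236.9 FPKM in the UAB126 libraries. The groups did not overlap, and the UAB126 libraries were within 1.01 times of each other. The log2 difference of -0.59 ± 0.23 did not pass (limma, adjusted p = 0.375, unadjusted p = 0.0517; 95% interval -1.18 to 0.0063). It was negative in each of the 14 alternative settings tried, from -0.71 to -0.23, and did not pass in any. In most of them the sign could not turn. Settings such as no filter or the replicate block left the difference at -0.59. Groups without overlap keep their sign when 1 library is left out. Only quantile normalization, median ratio scaling and removal of the length trend could turn the sign, and they gave -0.23, -0.55 and -0.52.

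Pgrmc1 (chromosome X, 36598206 to 36606079, plus strand) measured 771.8 and 728.9 FPKM in the Vehicle libraries compared with 586.1 and 610.4 FPKM in the UAB126 libraries. Replicates differed by 1.06 and 1.04 times and the groups did not overlap, and the log2 difference was -0.33 ± 0.25 (limma, adjusted p = 0.550). With quantile normalization its sign turned, to 0.16.

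Cyb5 was the most abundant of the 10 genes, with 2661 and 2837 FPKM in the Vehicle libraries compared with 1818 and 2374 FPKM in the UAB126 libraries (log2 difference -0.40 ± 0.31, limma adjusted p = 0.554). Both UAB126 libraries were lower, and UAB126 replicate 1 was lowest; without it the difference was -0.21. The libraries differed by transcript length: among the tenth of tested genes with the shortest transcripts, up to 1321 bases, the median difference was -0.41, as large as that of Cyb5, whose longest annotated transcript has 1182 bases. Among those short genes 1 library of each group stood apart: the median log2 deviation from each gene's mean was 0.47 for Vehicle replicate 2 and -0.43 for UAB126 replicate 1, whereas it was -0.022 and 0.0021 for the remaining Vehicle and UAB126 library. With the trend on length removed Cyb5 differed by -0.043 and Pgrmc1 by -0.16, while Cyb5r3 stayed at -0.52 (limma adjusted p = 0.299). With quantile normalization the sign of Cyb5 turned, to 0.29.

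**Figure D3:**
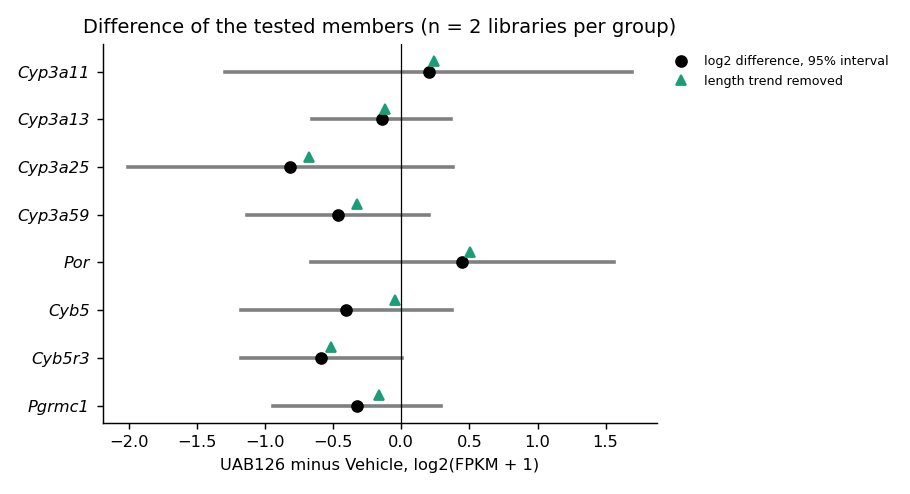
Log2 difference of the 8 tested genes, UAB126 minus Vehicle on the log2(FPKM + 1) scale (black points, with limma's 95% intervals in grey), and the same with the trend on transcript length removed (green triangles). Each interval includes 0, that of Cyb5r3 by the smallest margin (-1.18 to 0.0063), and Cyb5 moves to -0.043.

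Among the partners the order of mean level was Cyb5, Pgrmc1, Cyb5r3 and Por, and Por exceeded Cyb5r3 in UAB126 replicate 2. Set against the summed FPKM of 90 Cyp symbols, Por was at 1.34 and 1.94 FPKM per 100 in Vehicle and 1.86 and 2.95 FPKM per 100 with UAB126, with overlap. On the same scale Cyb5 stood at 22.1 and 26.6 for Vehicle and 20.6 and 18.4 for UAB126, and Cyb5r3 at 3.24 and 3.08 for Vehicle and 2.72 and 1.84 for UAB126. Both were lower in each UAB126 library than in each Vehicle library, while Pgrmc1, at 6.40 and 6.83 for Vehicle and 6.64 and 4.74 for UAB126, overlapped. The ratio of Cyb5 to Por was 16.5 and 13.7 in Vehicle and 11.1 and 6.24 with UAB126, without overlap. These values keep the trend on transcript length, and the longest transcript has 1182 bases for Cyb5 and 2636 for Por. With that trend removed the log2 difference was -0.043 for Cyb5 and 0.51 for Por. With quantile normalization the log2 ratio of Cyb5 per Cyp FPKM went from -0.31 to -0.064. The summed Cyp FPKM leaves out Cyp51, whose symbol has another form, and Cyp2e1 and Cyp1a2, which share rows with other genes. No test was run on any of these ratios.

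By a fixed rule, the symbols with the pattern most like that of Cyp3a11 over the 4 libraries, among 5190 with a mean of at least 10 FPKM, included the joint rows Sgtb with Trim23, Acot1 with Acot3 and Ctbs with Spata1, and the gene Plekhf1. Their root mean square difference from Cyp3a11 in centred log2 values was 0.14 to 0.24. For Por they included Fbxo31, Got1, Slc25a33 and Pnpla2, at 0.084 to 0.13. With 4 libraries such likeness is a description only.

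The receptors and other members of the pathway were read from lists. Nr1i2, which encodes PXR and was singled out after its values were seen, measured 37.8 and 37.3 FPKM in the Vehicle libraries compared with 29.0 and 46.1 FPKM in the UAB126 libraries (log2 difference -0.037 ± 0.27, limma adjusted p = 0.958). Nr1i3, which encodes CAR, shares a row with the apolipoprotein gene Apoa2 and was not read. Of 23 tested regulators of this axis 0 passed (limma) and 1 had an unadjusted p under 0.05; both UAB126 libraries were above in 10 and below in 2, with a median log2 difference of 0.26 (0.16 without Vehicle replicate 2, 0.17 without UAB126 replicate 2) against -0.025 over all tested symbols. Foxo1, an insulin-restrained transcription factor, measured 10.6 and 10.6 FPKM without and 16.4 and 20.2 FPKM with the compound, and Cebpa, a hepatocyte transcription factor, 185.3 and 168.6 FPKM without and 121.3 and 129.7 FPKM with it.

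Known targets of PXR and CAR outside the Cyp3a family went both ways. Of 21 tested, 0 passed (limma) and 9 had an unadjusted p under 0.05; 9 were above and 7 below, with a median of 0.0059. The median was 0.25 with quantile normalization, 0.28 without UAB126 replicate 1, and 0.11 and 0.12 without Vehicle replicate 1 and 2, respectively. Gstm3, a glutathione transferase gene, measured 17.5 and 13.9 FPKM in the Vehicle libraries compared with 46.6 and 35.6 FPKM in the UAB126 libraries, while Gstm2 measured 38.5 and 38.9 FPKM without and 9.96 and 12.4 FPKM with the compound (adjusted p = 0.0745). Cyp2b10, a classic CAR target singled out after its values were seen, measured 1.40 and 3.03 FPKM without and 12.2 and 48.9 FPKM with the compound (log2 difference 3.04 ± 0.65, adjusted p = 0.227). It was highest in UAB126 replicate 2, the library highest in Cyp3a11 and Por. The 3 genes did not go together in Vehicle replicate 1, where Cyp3a11 was high (417.0 FPKM). There Cyp2b10 and Por (161.1 FPKM) were at their lowest.

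Other electron carriers and the other enzymes that Por or cytochrome b5 serve were described in the same way. Of 7 tested carriers 0 passed (limma) and 1 had an unadjusted p under 0.05. That gene was Cyb5r1, a relative of Cyb5r3, with 7.22 and 7.07 FPKM in the Vehicle libraries compared with 19.9 and 31.6 FPKM in the UAB126 libraries (log2 difference 1.68 ± 0.26, adjusted p = 0.132), opposite in sign to Cyb5r3. Cyb5b, the cytochrome b5 of the outer mitochondrial membrane, measured 209.7 and 257.0 FPKM without and 145.1 and 184.3 FPKM with the compound. Of 12 tested enzymes that draw on Por or cytochrome b5, 0 passed (limma) and 6 had an unadjusted p under 0.05; 9 were above and 2 below, with a median of 0.60 (0.94 with quantile normalization). They include the sterol synthesis genes Sqle (adjusted p = 0.0900), Sc4mol, Dhcr7 and Cyp51, and Cyp51 stood at 28.3 and 35.8 FPKM for Vehicle and 59.2 and 73.3 FPKM for UAB126.

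Among the 90 Cyp symbols, those other than the members included 51 that were tested, of which 2 passed, both lower (limma). They were Cyp26a1, a retinoic acid hydroxylase, with a log2 difference of -3.79 ± 0.25, and Cyp2d40, with -2.69 ± 0.20. Both passed in 11 of 14 alternatives, and neither passed with no filter on low values, without UAB126 replicate 1 or without UAB126 replicate 2. Of the 51, 13 lay above and 22 below. The median was -0.18, and -0.030 with quantile normalization, -0.053 with the length trend removed, -0.068 without UAB126 replicate 1 and -0.32 without UAB126 replicate 2. For the 4 tested Cyp3a genes it was -0.30, and -0.17 with quantile normalization, -0.22 with the length trend removed, -0.37 without UAB126 replicate 1 and -0.38 without UAB126 replicate 2. Without Vehicle replicate 2 it was -0.54, against -0.22 for the other Cyp genes. Without Vehicle replicate 1 it was -0.18, against -0.20 for the other Cyp genes, so the lower Cyp3a median rested on that library. Among the most abundant, Cyp2d9 measured 1712 and 1609 FPKM in the Vehicle libraries compared with 656.0 and 495.5 FPKM in the UAB126 libraries, and Cyp4a14, a fatty acid hydroxylase, 275.4 and 46.4 FPKM compared with 1302 and 2655 FPKM.

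The low female-biased Cyp3a genes can be set beside lists of sex-biased liver genes. Of 25 female-biased symbols found, only 9 were tested, a set that the filter favours for genes high in either group; 0 passed (limma), 8 were above and 1 below. Cyp2b9 measured 1.75 and 0.736 FPKM in the Vehicle libraries compared with 6.23 and 21.9 FPKM in the UAB126 libraries. Of 26 tested male-biased genes 1 passed as lower (limma), Serpina12 (39.5 and 52.5 FPKM for Vehicle, 3.38 and 1.49 FPKM for UAB126), which passed in 10 of 14 alternatives and not with no filter, with no intensity trend (adjusted p = 0.0508), or without UAB126 replicate 1 or 2; 3 were above and 20 below, with a median of -0.96 (-0.61 with quantile normalization).

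**Figure D4:**
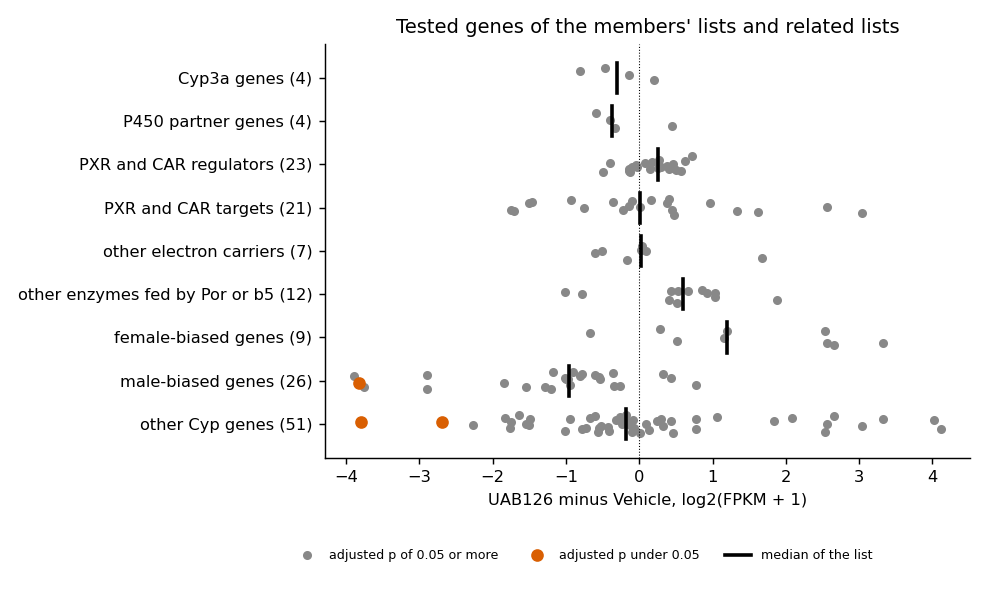
Log2 difference (UAB126 minus Vehicle, log2(FPKM + 1) scale) of each tested gene in the 2 lists of members and in 7 related lists, with the number tested in brackets; bars are medians and orange points have a limma adjusted p under 0.05. The Cyp3a and partner genes lie between -0.81 and 0.45, inside the range of the other Cyp genes (-3.79 to 4.12).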

How the data were processed

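Total RNA from frozen mouse liver was selected for polyadenylated RNA and sequenced from both ends, per the labels' protocols. Cufflinks 2.2.1, Cuffdiff, STAR 2.5.1b and Trim Galore 0.4.1 are named, with build mm10, per the submitters' processing notes; no source used here gives the settings or the gene annotation. The authors deposited 1 table of FPKM values, with a column per library. FPKM holds no counts, so no count test was run. Among low rows, 46.8% to 48.0% of ratios between libraries fell within 0.01 of whole steps worth 1 fragment, which gave estimated depths of 0.691, 0.404 and 0.703 for the first and the second Vehicle library and for UAB126 replicate 2, taking UAB126 replicate 1 as 1; the absolute depth is unknown, and Vehicle replicate 2 is least precise.

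Of 27216 rows, 3634 without a symbol were left out and rows with the same symbol were summed. Symbols averaging 1 FPKM or more, 10786 in all, were fitted as log2(FPKM + 1) with limma 3.58.1 in R 4.3.3 (two-sided, 1 term for the group, eBayes with trend), which was tested on simulated data; a log2 difference on this scale understates changes of low genes. Coding sequences came from GENCODE M21 and promoters from RefSeq GRCm38.p6. Every member is named; of each list, genes past the threshold are named, otherwise up to 4 with the smallest p without overlap, and some of them are given here only in counts; genes chosen after their values were seen are marked as such. The members and lists were chosen with earlier results of these data known. Of the 5 symbols nearest in pattern to Cyp3a11 and to Por, 1 each is not reported here.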

Additional observations from a re-analysis of the deposited data

How the results depend on the processing

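Each of the 8 tested genes stayed above an adjusted p of 0.05 (limma) in every alternative: a pseudocount of 0.1, no filter, a mean of at least 5 FPKM (where Cyp3a59 was not tested), no intensity trend, quantile normalization, median ratio scaling, removal of the length trend, the highest of same-symbol rows, leaving out symbols that were 0 somewhere yet exceeded 20 FPKM elsewhere, a replicate block, and leaving out each library. The lowest adjusted p was 0.122, for Cyb5r3 with the replicate block. Signs turned for Cyp3a11 without Vehicle replicate 2 (-0.36) and without UAB126 replicate 2 (-0.50), for Por without UAB126 replicate 2 (-0.16), and with quantile normalization for Cyp3a13 (0.050), Cyb5 (0.29) and Pgrmc1 (0.16); the cause was not tested. Leaving out 1 library gave -0.50 to 0.90 for Cyp3a11 and -0.16 to 1.05 for Por. The number of all genes past the threshold, 15 (5 higher, 10 lower), was 27 with a pseudocount of 0.1, 2 with no filter, 24 with quantile normalization (12 higher, 12 lower), 24 with median ratio scaling, 23 with the length trend removed (12 higher, 11 lower), 148 with the replicate block, and 0 to 442 leaving out 1 library. Of the 15, 0 were among the 2 called with no filter, 1 was among the 14 called without UAB126 replicate 1, 13 were among those called with a pseudocount of 0.1, 12 with the length trend removed, and 15 with quantile normalization, median ratio scaling, the block, or without either Vehicle library. The replicate numbers pair no samples by any label; same-numbered libraries deviated together with a correlation of 0.178 across symbols, and the block changed no call of the 8 genes. Related pathway genes past the threshold numbered 1, against 3 with quantile normalization, 4 with median ratio scaling and 0 to 12 leaving out 1 library; other Cyp genes numbered 2, against 4, 4 and 0 to 10. With quantile normalization the log2 ratio of summed Cyp FPKM went from -0.09 to 0.35, that of summed Cyp3a FPKM from -0.43 to -0.050, that of the summed partners from -0.35 to 0.26 and that of Cyb5 per Cyp FPKM from -0.31 to -0.064. The Cyp3a ratio ran from -1.03 to 0.16 leaving out 1 library. Depth limits chiefly Cyp3a16 and Cyp3a44, below 1 FPKM.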
